A study of Mus musculus with 16 samples.

Results

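The protamines, transition proteins, flagellar proteins and acrosomal proteins of the male gamete were followed in mouse brain as a set of 35 genes of spermatids and sperm, out of 55266 genes with transcripts in the count tables. The genes were chosen by name from what is known of them in testis, with earlier results of these data known, and the level of each was the sum of its transcripts in each library, scaled to the library total as CPM, the count that a library of 1000000 counts would hold. Frontal cortex and cerebellum were taken from adult mice null for Upf3b (Upf3b-KO) and from littermate controls (Ctrl), with 4 libraries for each tissue and genotype. UPF3B is a factor of nonsense-mediated RNA decay, and the study asked whether the same mRNAs depend on it in these 2 brain regions. Sex and exact age were not given in the sources used here. The study names 4 mice of each genotype for both tissues, but not whether frontal cortex and cerebellum of the same number came from 1 animal. A cerebellar Upf3b-KO library, replicate 1, held 64981 counts, where a level of 3 counts is 46.2 CPM. It was left out, which leaves this group n = 3. The other 15 libraries held 27660078 to 35238677 counts each, at which 3 counts amount to 0.0851 to 0.108 CPM.

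Spermatids are haploid cells that no longer divide. They replace histones first with transition proteins and then with protamines, build a flagellum and an acrosome, and store many of their mRNAs in particles until they are translated. None of these structures belongs to neurons or glia, and most of the 35 genes are used as markers of germ cells.

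The genotype labels and the tissue labels were checked first. Upf3b was at 14.8 ± 0.637 CPM (SD, n = 4) in Ctrl frontal cortex and 0.559 ± 0.257 CPM (n = 4) in Upf3b-KO frontal cortex, and at 22.7 ± 1.23 CPM (n = 4) and 0.737 ± 0.198 CPM (n = 3) in cerebellum, so each of the 15 deep libraries carried the level of its labelled genotype. The summed level of 12 genes of cerebellar neurons was 10680 to 10850 CPM in Ctrl cerebellum and 326 to 333 CPM in Ctrl frontal cortex, while 10 genes of cortical neurons summed to 1827 to 1894 CPM in Ctrl frontal cortex and 606 to 629 CPM in Ctrl cerebellum. In Upf3b-KO libraries the cerebellar genes summed to 4776 to 4782 CPM in cerebellum, lower than in Ctrl, and 347.5 to 360.5 CPM in frontal cortex. The cortical genes summed there to 412.2 to 421.4 CPM in cerebellum and 1770 to 1780 CPM in frontal cortex.

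In frontal cortex the 35 genes together held 63.5 ± 1.93 CPM (SD, n = 4) in Ctrl and 426 ± 6.17 CPM (n = 4) in Upf3b-KO, a ratio of 6.71. In cerebellum they held 12.1 ± 0.582 CPM (n = 4) in Ctrl and 40.3 ± 1.85 CPM (n = 3) in Upf3b-KO, a ratio of 3.32. The sum was 5.23 times as high in Ctrl frontal cortex as in Ctrl cerebellum and 10.6 times as high in Upf3b-KO frontal cortex as in Upf3b-KO cerebellum. No library of any group overlapped another group. In the same libraries, 12 genes of choroid plexus epithelium summed to 26.4 to 27.0 CPM in Ctrl and 2355 to 2408 CPM in Upf3b-KO frontal cortex, and to 33.4 to 37.6 CPM and 1491 to 1513 CPM in cerebellum, and their part in the levels of the 35 genes was not tested. In bulk tissue, a larger number of cells that hold these transcripts and more transcript in each cell cannot be told apart.

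**Figure D1:**
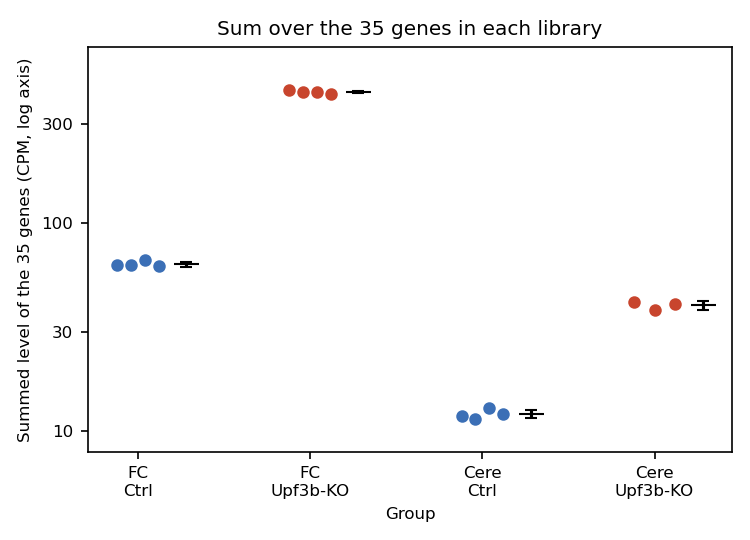
Summed CPM of the 35 genes in each of the 15 deep libraries (points, log axis) by group, with the group mean and SD as a bar beside them. The 4 groups do not overlap: Ctrl cerebellum lies at 11.5 to 12.9 CPM, Upf3b-KO cerebellum at 38.3 to 41.8, Ctrl frontal cortex at 62.0 to 66.3 and Upf3b-KO frontal cortex at 418 to 433.

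A gene was taken as above a few reads when it had at least 3 counts in every deep library of a group. By this rule 30 of the 35 genes were above a few reads in Ctrl frontal cortex, 34 in Upf3b-KO frontal cortex, 14 in Ctrl cerebellum and 29 in Upf3b-KO cerebellum. Spaca3, Izumo1, Catsper1 and Catsper3 were under it in Ctrl frontal cortex, and H1f6, the linker histone of spermatocytes and spermatids, was under it in all 4 groups. Odf1, Izumo1, Catsper1, Catsper3 and Catsper4 were under it in Upf3b-KO cerebellum. These 5 and Tnp1, Spem1, Cabs1, Tssk1, Tssk2, Tssk3, Gapdhs, Ldhc, Pgk2, Acr, Acrv1, Zpbp2, Spaca1, Spaca3 and Crisp2 were under it in Ctrl cerebellum. Mean levels ran from 1 to 10 CPM for 17 genes in Ctrl frontal cortex and for 3 genes in Ctrl cerebellum (Zpbp, Catsper2 and Hspa1l), with none above 10 CPM in either. In Upf3b-KO frontal cortex 13 genes were above 10 CPM.

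**Figure D2:**
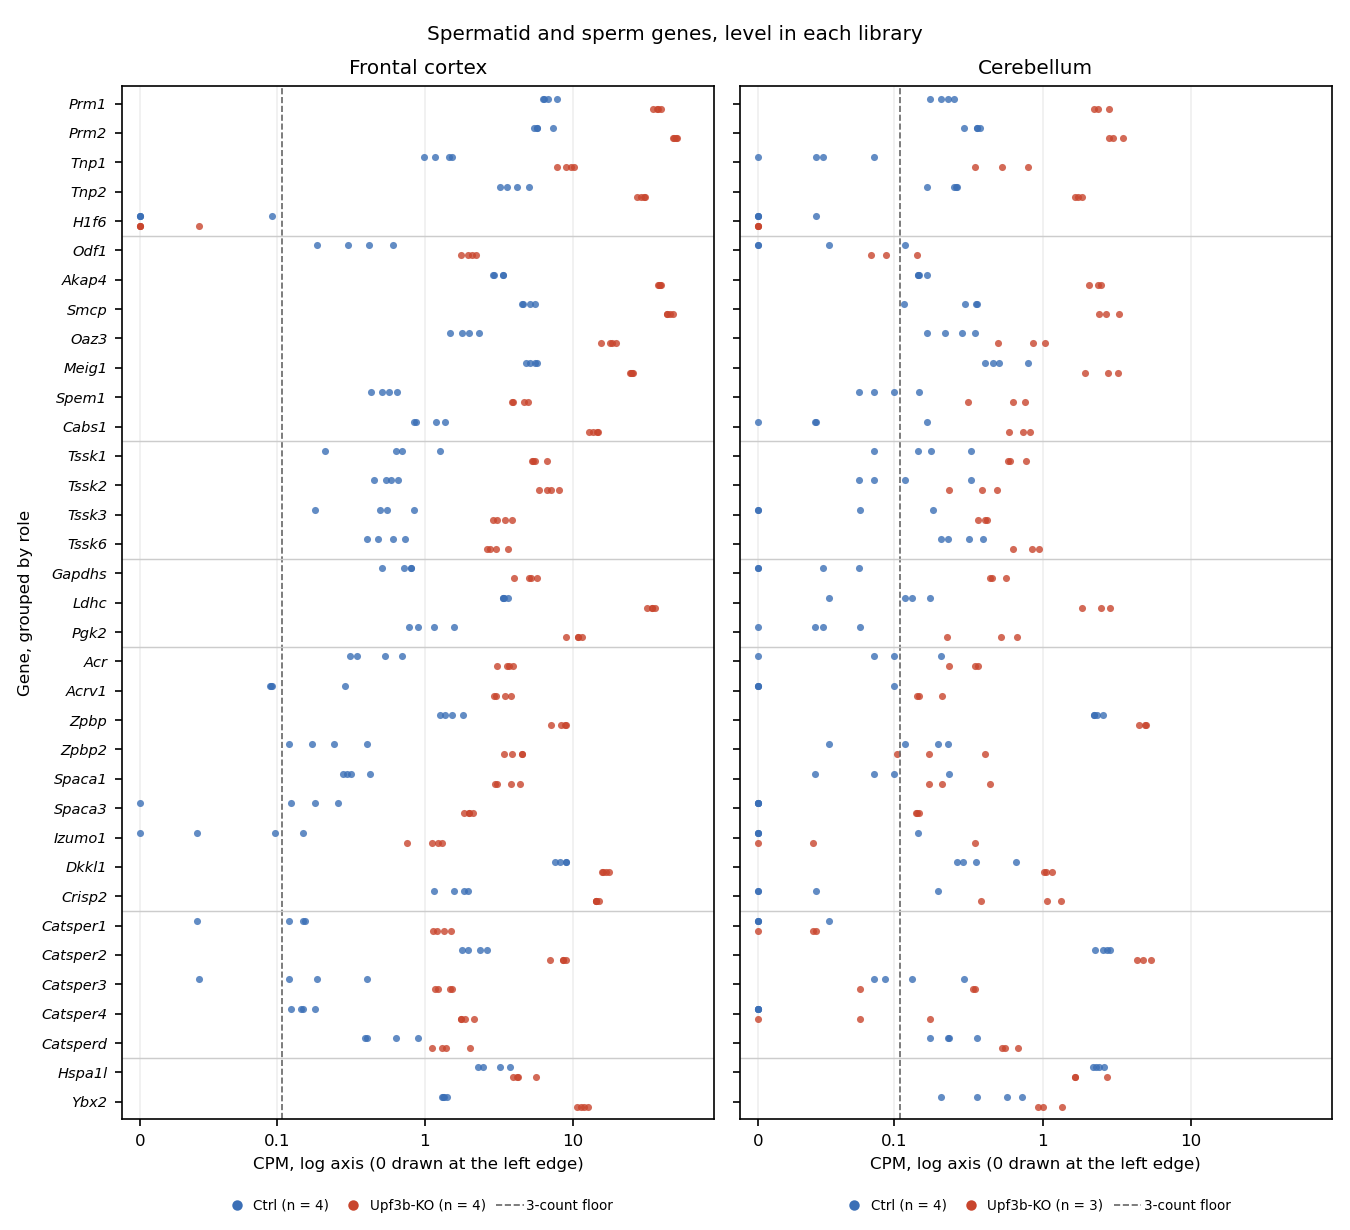
CPM of each of the 35 genes in each deep library on a log axis, with 0 drawn at the left edge, frontal cortex on the left and cerebellum on the right, and genes grouped by role from nuclear condensation at the top to chaperone and RNA binding at the bottom. In frontal cortex every Upf3b-KO library lies above every Ctrl library for 34 genes, and in cerebellum for 25, many of them from Ctrl levels near or under the dashed line at 3 counts in the shallowest of the 15 libraries.

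In frontal cortex 32 of the 34 genes tested were higher in Upf3b-KO and none was lower, where a call needed a change over 2-fold and an adjusted p under 0.01 in the quasi-likelihood test of edgeR, adjusted by Benjamini-Hochberg across the genes tested. Of all 18218 genes tested, 10.2% were called, 9.16% higher and 1.06% lower. The p-values measure the spread between these libraries. The fold changes of the 32 ran from 2.35 for Catsperd to 21.5 for Acrv1, with a median of 7.90 (Acrv1 is among the genes that entered the test through their Upf3b-KO counts), and 26 of them lay between 5 and 15. None of the 34 had a negative value, at any p, and DESeq2 also called 32 higher and 0 lower. Of the 34, 27 had at least 10 counts in 3 or more Ctrl libraries, and 25 of these 27 were called. The other 7 (Acrv1, Zpbp2, Spaca3, Izumo1, Catsper1, Catsper3 and Catsper4) entered the test through their Upf3b-KO counts, so their calls are no support for a direction. At the level of transcripts, 26 genes had at least 1 transcript called higher. Every Upf3b-KO library was above every Ctrl library for 34 of the 35 genes, which held for 33.1% of all genes tested.

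In cerebellum 24 genes were tested, 17 were called higher in Upf3b-KO and none was called lower, against 13.2% called of 17785 genes, 10.3% higher and 2.86% lower. The only negative value was that of Hspa1l, which did not pass, and no gene was lower at an unadjusted p under 0.05. Only 6 of the 24 (Prm2, Meig1, Zpbp, Catsper2, Hspa1l and Ybx2) had at least 10 counts in 3 or more Ctrl libraries, and Prm2 and Meig1 were called. The other 18 entered through their Upf3b-KO counts, and 15 of them were called, which the filter favours, so the cerebellar calls of these 15 are no support for a direction, here and in the counts by role below. At the level of transcripts, 4 genes had at least 1 transcript called higher. The fold changes of the 17 ran from 2.61 for Dkkl1 to 19.04 for Ldhc. Every Upf3b-KO library was above every Ctrl library for 25 of the 35 genes, which held for 36.3% of all genes tested. H1f6, Odf1, Pgk2, Acr, Acrv1, Zpbp2, Spaca1, Spaca3, Izumo1, Catsper1 and Catsper4 had too few counts to be tested there. The number called fell to 10 when the shallow library was kept and to 10 with a minimum count of 30, and it was 13 with the replicate number as a block.

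Promoter windows of 300 bases from RefSeq (250 bases before and 50 after the start, GRCm38.p6) were available for 31 of the 35 genes and were searched for the cyclic AMP response element TGACGTCA, which reads the same on both strands, and for its core TGACG on either strand, which the full element contains. The full element is bound in spermatids by the factor CREM, and it was present in 1 of the 31 windows, that of Izumo1, and in 2.03% of all 27025 genes of the table. The core was present in 11 of the 31 (35.5%) and in 23.0% of all genes. These are counts of letters and not of bound sites. The stretches of Izumo1 and Spaca1 are shown as examples because they hold the full element and 2 cores within 30 bases, respectively, with the matches in capitals, and each was placed in GRCm39 by its only exact match on the chromosome.
Izumo1: ctgccaccctaTGACGTCAcgatgggatgg
Spaca1: aatggggTGACGcgcggTGACGcctcaatg
The Izumo1 stretch is on the plus strand at chr7:45271128-45271157, 80 to 51 bases before the start of its leading transcript. The Spaca1 stretch is on the minus strand at chr4:34050112-34050141, inside the first exon. The windows of Prm1, Prm2, Tnp1 and Tnp2 hold neither form. Only these exact letters were searched, and variant forms would be missed. How the letters relate to the levels of the genes was not tested. The window of Catsperd also holds 2 cores within 30 bases, but 1235 to 1206 bases before the start of its leading transcript.

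Prm1 and Prm2 encode the protamines that pack sperm DNA, and Tnp1 and Tnp2 the transition proteins that precede them. On a scale of CPM per kilobase of transcript (RPKM), Prm1 was at 79.0 ± 3.93 and Prm2 at 77.7 ± 2.12 in Upf3b-KO frontal cortex, the highest levels of the 35 genes, against 14.5 ± 1.52 and 9.63 ± 1.33 in Ctrl (SD, n = 4 each). Prm1, Prm2 and Tnp2 are neighbours on the minus strand of GRCm39, at chr16:10614190-10614750, chr16:10609244-10609975 and chr16:10605747-10606524 for their leading transcripts, each of 2 exons. The annotated gene Gm46563 on the other strand covers 72.7%, 20.3% and 48.9% of these transcripts, and strand use in the counting was not stated, so part of their counts cannot be assigned to a strand. The same holds for 22.4% of the leading transcript of Tnp1, 30.2% of Gapdhs, 44.2% of Ybx2 and 71.5% of Hspa1l. The 4 tested genes of this role were called higher in frontal cortex. They were also called in cerebellum, where only Prm2 did not depend on its Upf3b-KO counts to be tested.

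Prm1 was at 6.27, 6.37, 7.83 and 6.77 CPM in the 4 Ctrl and 36.7, 39.04, 37.8 and 34.7 CPM in the 4 Upf3b-KO libraries of frontal cortex (log2 fold change 2.37 ± 0.07, adjusted p = 1.95e-17, where ± is the SE of the fold change here and below). In cerebellum it was at 0.174, 0.206, 0.231 and 0.253 CPM in the 4 Ctrl libraries and 2.83, 2.21 and 2.35 CPM in the 3 Upf3b-KO libraries (log2 fold change 3.45 ± 0.28, adjusted p = 2.46e-09). The groups did not overlap in either tissue, and each Ctrl library of cerebellum held only 6 or 7 counts. Prm2 was at 5.73, 7.28, 5.42 and 5.74 CPM in Ctrl and 47.2, 50.2, 49.2 and 48.1 CPM in Upf3b-KO frontal cortex (log2 fold change 2.94 ± 0.07, adjusted p = 3.1e-19). In cerebellum Prm2 was at 0.376, 0.294, 0.363 and 0.361 CPM in Ctrl and 3.49, 3.01 and 2.82 CPM in Upf3b-KO (log2 fold change 3.09 ± 0.23, adjusted p = 8.09e-10), with 10 to 13 counts in each Ctrl library. No Ctrl library reached a Upf3b-KO library for Prm2 either.

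Tnp2 was at 4.203, 3.58, 5.07 and 3.197 CPM in Ctrl and 30.1, 28.9, 30.6 and 27.2 CPM in Upf3b-KO frontal cortex (log2 fold change 2.78 ± 0.09, adjusted p = 3.28e-16). In cerebellum Tnp2 was at 0.260, 0.265, 0.165 and 0.253 CPM in Ctrl and 1.85, 1.65 and 1.73 CPM in Upf3b-KO (log2 fold change 2.81 ± 0.31, adjusted p = 1.58e-07). All Upf3b-KO libraries were above all Ctrl libraries in both tissues. Tnp1, on chromosome 1, was at 1.17, 1.46, 1.54 and 0.993 CPM in Ctrl and 9.74, 7.74, 10.1 and 8.91 CPM in Upf3b-KO frontal cortex (log2 fold change 2.74 ± 0.14, adjusted p = 4.76e-13). In cerebellum Tnp1 had 0, 1, 1 and 2 counts in the Ctrl libraries and 10, 28 and 18 in the Upf3b-KO libraries (log2 fold change 3.94 ± 0.69, adjusted p = 5.54e-05), so its Ctrl level there was under the floor of 3 counts in every library. H1f6 stood apart from the other genes of this role, with 3, 1, 1 and 0 counts in all over the libraries of Ctrl frontal cortex, Upf3b-KO frontal cortex, Ctrl cerebellum and Upf3b-KO cerebellum.

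Genes of the flagellum and its sheath summed to 16.6 to 17.8 CPM in Ctrl and 144 to 147 CPM in Upf3b-KO frontal cortex. All 7 were called higher in frontal cortex and 6 of 7 in cerebellum, where Odf1 was not tested and only Meig1 did not depend on its Upf3b-KO counts to be tested. Akap4, the main protein of the fibrous sheath, was at 3.39, 2.88, 3.36 and 2.92 CPM in Ctrl and 38.8, 39.1, 37.4 and 37.9 CPM in Upf3b-KO frontal cortex (log2 fold change 3.53 ± 0.07, adjusted p = 1.64e-20). In cerebellum Akap4 was at 0.145, 0.147, 0.165 and 0.145 CPM in Ctrl, which is 4 or 5 counts a library, and 2.37, 2.07 and 2.47 CPM in Upf3b-KO (log2 fold change 3.85 ± 0.29, adjusted p = 1.1e-09). Smcp, a cysteine-rich protein associated with the mitochondria of sperm, was at 4.503, 4.58, 5.54 and 5.15 CPM in Ctrl and 43.02, 47.6, 45.4 and 42.9 CPM in Upf3b-KO frontal cortex (log2 fold change 3.10 ± 0.07, adjusted p = 1.27e-19). In cerebellum Smcp was at 0.116, 0.353, 0.297 and 0.361 CPM in Ctrl and 3.28, 2.41 and 2.67 CPM in Upf3b-KO (log2 fold change 3.25 ± 0.30, adjusted p = 1.57e-08). Neither gene had a Ctrl library that reached a Upf3b-KO library of the same tissue.

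Meig1, which spermatids need to assemble the manchette and flagellum, was at 5.704, 4.82, 5.16 and 5.55 CPM in Ctrl and 25.4, 24.8, 24.4 and 24.9 CPM in Upf3b-KO frontal cortex (log2 fold change 2.15 ± 0.07, adjusted p = 1.66e-16). In cerebellum Meig1 was at 0.463, 0.412, 0.792 and 0.506 CPM in Ctrl and 3.21, 1.93 and 2.76 CPM in Upf3b-KO (log2 fold change 2.22 ± 0.27, adjusted p = 6.87e-07). Its fold changes of 4.44 and 4.67 lay close to each other. Oaz3, an antizyme of polyamine metabolism translated in spermatids, was at 1.79, 2.31, 1.48 and 1.97 CPM in Ctrl and 17.9, 15.5, 19.6 and 18.4 CPM in Upf3b-KO frontal cortex (log2 fold change 3.16 ± 0.11, adjusted p = 1.17e-15). In cerebellum Oaz3 was at 0.352, 0.284, 0.165 and 0.221 CPM in Ctrl and 0.503, 1.04 and 0.859 CPM in Upf3b-KO (log2 fold change 1.57 ± 0.41, adjusted p = 0.00272), and there adjusted p for Oaz3 was 0.0102 with the replicate number as a block, 0.0303 without Upf3b-KO replicate 3 and 0.0138 without Upf3b-KO replicate 4. Gm65458 and Tdrkh on the other strand cover 69.0% of the leading Oaz3 transcript. Cabs1, a calcium-binding sperm protein, rose 12.4-fold in frontal cortex and 11.7-fold in cerebellum. In cerebellum Cabs1 had 1, 1, 5 and 0 counts in Ctrl and 21, 21 and 28 in Upf3b-KO libraries, and its log2 fold change of 3.55 became 4.83 without Ctrl replicate 3. Spem1, needed for shedding the cytoplasm of the maturing sperm, rose 7.6-fold and 5.58-fold. Odf1, of the outer dense fibres, rose 4.93-fold in frontal cortex and had 0 to 4 counts in Ctrl and 2 to 5 counts in Upf3b-KO libraries of cerebellum.

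The testis-specific serine/threonine kinases act in late spermatids. All 4 rose in frontal cortex, and Tssk1, Tssk3 and Tssk6 were called in cerebellum, where all 4 were tested through their Upf3b-KO counts. Tssk2 was at 0.660, 0.546, 0.454 and 0.590 CPM in Ctrl and 8.01, 7.08, 6.66 and 5.88 CPM in Upf3b-KO frontal cortex (log2 fold change 3.53 ± 0.16, adjusted p = 8.09e-14). In cerebellum Tssk2 was at 0.0579, 0.118, 0.330 and 0.0723 CPM in Ctrl and 0.489, 0.387 and 0.235 CPM in Upf3b-KO (log2 fold change 1.30 ± 0.61, adjusted p = 0.0686), and the groups overlapped. Tssk1, its neighbour on chromosome 16, was at 0.210, 0.637, 0.706 and 1.27 CPM in Ctrl and 5.33, 5.27, 5.501 and 6.63 CPM in Upf3b-KO frontal cortex (log2 fold change 2.94 ± 0.25, adjusted p = 2.4e-09). In cerebellum Tssk1 was at 0.145, 0.176, 0.330 and 0.0723 CPM in Ctrl and 0.768, 0.606 and 0.588 CPM in Upf3b-KO (log2 fold change 1.76 ± 0.47, adjusted p = 0.00306). Tssk1 and Tssk2 share 3.42% and 9.34% of their stretches of 50 bases, so a small part of their reads could be split between them.

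Tssk3 was at 0.841, 0.182, 0.551 and 0.497 CPM in Ctrl and 3.9, 3.07, 2.9 and 3.45 CPM in Upf3b-KO frontal cortex (log2 fold change 2.60 ± 0.27, adjusted p = 3.38e-08). In cerebellum Tssk3 had 0, 2, 0 and 5 counts in Ctrl and 12, 13 and 14 counts in Upf3b-KO libraries (log2 fold change 2.70 ± 0.75, adjusted p = 0.00416), and adjusted p was 0.0118 without Ctrl replicate 1 and 0.0117 to 0.0164 without each of the 3 Upf3b-KO libraries, so the call was lost in each. Without Ctrl replicate 4, which held the 5 counts, the log2 fold change of Tssk3 was 4.02. Tssk6, needed for sperm to fuse with the egg, was at 0.480, 0.730, 0.610 and 0.404 CPM in Ctrl and 3.0, 3.65, 2.75 and 2.63 CPM in Upf3b-KO frontal cortex (log2 fold change 2.36 ± 0.22, adjusted p = 8.51e-09). In cerebellum Tssk6 was at 0.319, 0.206, 0.232 and 0.398 CPM in Ctrl and 0.629, 0.853 and 0.941 CPM in Upf3b-KO (log2 fold change 1.44 ± 0.39, adjusted p = 0.00313). Ndufa13 and Yjefn3 cover 77.8% of the single exon of Tssk6 on the other strand. With the replicate number as a block, adjusted p in cerebellum was 0.0157 for Tssk1, 0.0197 for Tssk3 and 0.0122 for Tssk6, so none of these kinases was called. Without Upf3b-KO replicate 2 adjusted p was 0.0202 for Tssk1, and without replicate 3 or 4 it was 0.0157 or 0.0225 for Tssk6.

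The sperm forms of glycolytic enzymes rose in frontal cortex. In cerebellum Ldhc and Gapdhs were called, both tested through their Upf3b-KO counts. Ldhc, the lactate dehydrogenase of spermatocytes and sperm, was at 3.63, 3.37, 3.36 and 3.41 CPM in Ctrl and 35.8, 31.6, 34.3 and 34.3 CPM in Upf3b-KO frontal cortex (log2 fold change 3.23 ± 0.07, adjusted p = 1.14e-19). In cerebellum Ldhc was at 0.174, 0.118, 0.132 and 0.0362 CPM in Ctrl and 1.85, 2.47 and 2.85 CPM in Upf3b-KO (log2 fold change 4.25 ± 0.35, adjusted p = 3.19e-09). Its Ctrl libraries of cerebellum held 1 to 6 counts and its Upf3b-KO libraries 53 to 97. Gapdhs, the sperm glyceraldehyde-3-phosphate dehydrogenase, was at 0.811, 0.515, 0.725 and 0.807 CPM in Ctrl and 5.75, 3.99, 5.24 and 5.06 CPM in Upf3b-KO frontal cortex (log2 fold change 2.73 ± 0.18, adjusted p = 3e-11). In cerebellum it had 2, 0, 1 and 0 counts in Ctrl and 13, 20 and 15 in Upf3b-KO libraries (log2 fold change 4.11 ± 0.73, adjusted p = 7.02e-05), a ratio of pooled levels of 20.7 with a 95% counting interval of 6.66 to 104. Without Ctrl replicate 1 the log2 fold change of Gapdhs in cerebellum was 5.01. Pgk2, the retrogene of phosphoglycerate kinase that replaces the X-linked enzyme in germ cells, was at 1.56, 1.15, 0.783 and 0.900 CPM in Ctrl and 11.6, 10.8, 8.96 and 10.8 CPM in Upf3b-KO frontal cortex (log2 fold change 3.18 ± 0.16, adjusted p = 2.15e-13). In cerebellum it had 1, 2, 1 and 0 counts in Ctrl and 15, 8 and 23 in Upf3b-KO libraries, which did not overlap, and it was not tested there.

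Among genes of the acrosome and of egg binding, 8 of 9 in frontal cortex were called higher and Dkkl1 was not, with Acrv1, Zpbp2, Spaca3 and Izumo1 tested through their Upf3b-KO counts. In cerebellum 3 could be tested, and Dkkl1 and Crisp2 were called, both tested through those counts. Dkkl1, an acrosomal protein related to the Dickkopf family, held the largest share of the summed CPM in Ctrl frontal cortex, 13.3%. It was at 8.98, 8.94, 8.203 and 7.604 CPM in Ctrl and 16.8, 17.4, 15.98 and 15.8 CPM in Upf3b-KO (log2 fold change 0.89 ± 0.07, adjusted p = 1.58e-09). The groups did not overlap, and the fold change of 1.85 was under the 2-fold limit. In cerebellum Dkkl1 was at 0.665, 0.353, 0.264 and 0.289 CPM in Ctrl and 1.05, 1.16 and 1.03 CPM in Upf3b-KO (log2 fold change 1.38 ± 0.36, adjusted p = 0.00253), and without Upf3b-KO replicate 3 the adjusted p was 0.0134. Crisp2, a cysteine-rich protein of the acrosome and tail, was at 1.56, 1.15, 1.83 and 1.96 CPM in Ctrl and 14.98, 14.2, 14.4 and 14.2 CPM in Upf3b-KO frontal cortex (log2 fold change 3.08 ± 0.12, adjusted p = 4.08e-15). In cerebellum Crisp2 had 0, 1, 6 and 0 counts in Ctrl and 11, 38 and 45 in Upf3b-KO libraries (log2 fold change 3.94 ± 0.71, adjusted p = 7.92e-05). Without Ctrl replicate 3, which held 6 of the 7 Ctrl counts, the log2 fold change of Crisp2 was 6.005.

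Zpbp and Zpbp2 encode the paired zona pellucida binding proteins of the acrosomal matrix. Zpbp was at 1.26, 1.52, 1.36 and 1.8 CPM in Ctrl and 8.34, 8.82, 7.09 and 8.94 CPM in Upf3b-KO frontal cortex (log2 fold change 2.41 ± 0.13, adjusted p = 1.79e-12). In cerebellum Zpbp was at 2.23, 2.23, 2.54 and 2.31 CPM in Ctrl and 5.03, 4.94 and 4.46 CPM in Upf3b-KO (log2 fold change 0.996 ± 0.13, adjusted p = 2.7e-06), so that its fold change of 1.99 was just under the limit while the groups stood apart. Zpbp2 was at 0.120, 0.242, 0.174 and 0.403 CPM in Ctrl and 4.53, 3.43, 4.51 and 3.88 CPM in Upf3b-KO frontal cortex (log2 fold change 4.03 ± 0.25, adjusted p = 1.31e-11). In cerebellum Zpbp2 had 8, 4, 6 and 1 counts in Ctrl and 3, 6 and 14 in Upf3b-KO libraries, and the groups overlapped. Acr, the acrosin protease, rose 7.099-fold in frontal cortex, Acrv1, an antigen of the acrosomal vesicle, 21.5-fold, Spaca1, a protein of the inner acrosomal membrane, 10.1-fold, and Spaca3, a lysozyme-like protein, 12.9-fold. Acrv1 had 3, 3, 10 and 3 counts in Ctrl and 93 to 128 in the 4 Upf3b-KO libraries of frontal cortex, and its log2 fold change of 4.43 became 5.05 without Ctrl replicate 3. Izumo1, the sperm ligand of the egg receptor JUNO, rose 14.6-fold, from 0 to 5 counts in Ctrl to 23 to 42 counts in Upf3b-KO libraries. Its log2 fold change of 3.87 became 4.57 without Ctrl replicate 1. Izumo1 shares 11.3% of its stretches of 50 bases with Rasip1, which overlaps it on the same strand. In cerebellum Spaca3 had 0 counts in all 4 Ctrl libraries and 4 or 5 in each Upf3b-KO library, at least 1.49-fold higher against a floor of 3 counts in each library.

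The CatSper channel carries calcium into the sperm tail from several subunits. Catsper2 and Catsperd rose in frontal cortex. Catsper1, Catsper3 and Catsper4 were also called there, but entered the test through their Upf3b-KO counts. None of the 3 tested was called in cerebellum. Catsper2, a pore subunit, was at 1.95, 1.79, 2.61 and 2.36 CPM in Ctrl and 8.99, 8.59, 6.99 and 8.54 CPM in Upf3b-KO frontal cortex (log2 fold change 1.85 ± 0.13, adjusted p = 1.03e-10). In cerebellum it was at 2.83, 2.26, 2.71 and 2.57 CPM in Ctrl and 4.36, 4.77 and 5.38 CPM in Upf3b-KO (log2 fold change 0.85 ± 0.14, adjusted p = 2.57e-05). Per length it was at 1.14 ± 0.108 RPKM (SD, n = 4) in Ctrl cerebellum, beside 0.990 ± 0.311 RPKM for Meig1, and its fold change of 1.803 was under the limit although the groups did not overlap. Only 50.5% of its counts fell on its protein-coding leading transcript.

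Catsperd, an auxiliary subunit, was at 0.901, 0.394, 0.638 and 0.403 CPM in Ctrl and 1.399, 1.31, 2.01 and 1.11 CPM in Upf3b-KO frontal cortex (log2 fold change 1.23 ± 0.31, adjusted p = 0.00175), the smallest rise called, and without Upf3b-KO replicate 3 the adjusted p was 0.0134. In cerebellum Catsperd was at 0.174, 0.235, 0.231 and 0.361 CPM in Ctrl and 0.558, 0.681 and 0.529 CPM in Upf3b-KO (log2 fold change 1.19 ± 0.42, adjusted p = 0.0189). The pore subunits Catsper1, Catsper3 and Catsper4 rose 10.6-fold, 6.74-fold and 11.6-fold in frontal cortex, from 0.0290 to 0.406 CPM over their Ctrl libraries to 1.13 to 2.16 CPM. Catsper4 had 5, 6, 5 and 4 counts in Ctrl and 59, 66, 57 and 57 in Upf3b-KO frontal cortex. Catsper3 had 1, 4, 14 and 6 counts in Ctrl and 50, 36, 46 and 40 in Upf3b-KO frontal cortex, so that every library of the knockout stood above the controls, and its log2 fold change of 2.75 became 3.48 without Ctrl replicate 3. In cerebellum Catsper1 and Catsper4 had at most 5 counts in any library.

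Of the remaining pair, Ybx2, the RNA-binding protein that stores mRNAs in germ cells, was at 1.35, 1.33, 1.42 and 1.304 CPM in Ctrl and 10.6, 11.9, 11.3 and 12.7 CPM in Upf3b-KO frontal cortex (log2 fold change 3.02 ± 0.11, adjusted p = 2.14e-15). In cerebellum Ybx2 was at 0.579, 0.206, 0.363 and 0.723 CPM in Ctrl and 1.36, 0.936 and 0.999 CPM in Upf3b-KO (log2 fold change 1.18 ± 0.38, adjusted p = 0.0104), just past the limit on adjusted p although the groups did not overlap. Hspa1l, the spermatid member of the HSP70 chaperones, was at 2.48, 3.23, 3.74 and 2.29 CPM in Ctrl and 3.92, 5.62, 4.24 and 4.17 CPM in Upf3b-KO frontal cortex (log2 fold change 0.53 ± 0.16, adjusted p = 0.00801), which is a fold change of 1.44 and no call. Its cerebellar libraries overlapped, at 2.20 to 2.59 CPM in Ctrl and 1.65 to 2.74 CPM in Upf3b-KO. Hspa1l shares 9.52% of its stretches of 50 bases with Hspa1a and Hspa1b, the inducible members expressed in many tissues, and its values are uncertain for that reason.

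In frontal cortex the order of the genes was similar in Ctrl and Upf3b-KO libraries. Over the 30 genes above a few reads in both groups, the mean levels had a Pearson's r of 0.856 on the log2 CPM scale and a Spearman's rho of 0.875. These correlations are across genes, which are not independent replicates and share their libraries and their transcript lengths, and they are given as a description. Upf3b-KO cerebellum had r = 0.701 and rho = 0.710 with Upf3b-KO frontal cortex over 29 genes, and r = 0.836 and rho = 0.849 with Ctrl frontal cortex over 28. Over the 14 genes above a few reads in Ctrl cerebellum, a different set from the 28 to 30 above, that group had r = -0.099 and rho = -0.134 with Ctrl frontal cortex, r = -0.363 and rho = -0.433 with Upf3b-KO frontal cortex, and r = 0.517 and rho = 0.407 with Upf3b-KO cerebellum. Prm2, Smcp, Akap4, Prm1 and Ldhc held 47.6% of the summed CPM, which is not scaled for length, in Upf3b-KO frontal cortex and 32.4% in Upf3b-KO cerebellum. The same 5 genes held 38.4% in Ctrl frontal cortex and 9.16% in Ctrl cerebellum, where Catsper2, Hspa1l and Zpbp took the first places with 21.4%, 19.6% and 19.2%.

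Between the tissues, the Ctrl level was lower in cerebellum for 27 of the 34 genes tested and higher for none, where 25.5% of 19831 genes were called, 16.8% lower in cerebellum and 8.74% higher. This fit was filtered over all 15 libraries, and genes with few counts in cerebellum entered it through frontal cortex, where they are high, so the count is no support for a direction. It also took the libraries of the tissues as independent, although the study names the same mice for both. Of the 6 genes with at least 10 counts in 3 or more Ctrl libraries of cerebellum, Prm2 (log2 difference -4.13), Meig1 (-3.32) and Ybx2 (-1.58) were called lower there, and Zpbp, Catsper2 and Hspa1l were not. Dkkl1 (-4.41), Prm1 (-5.00), Ldhc (-4.84) and Crisp2 (-4.81) were among the 27, and Crisp2 was at -6.87 without Ctrl cerebellum replicate 3. Tssk6, Zpbp, Zpbp2, Izumo1, Catsper2, Catsper3 and Hspa1l did not pass. Zpbp had the highest value of the 34, at 0.62.

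The fold change itself differed between tissues for 8 of the 34 genes in a test of the tissue by genotype interaction, against 9.40% of all genes tested, 6.36% toward cerebellum and 3.04% toward frontal cortex. This fit took its libraries as independent, although both tissues came from the same mice by the study's account. With the replicate number as a block, 6 were called. The values of Zpbp (-1.42), Catsper2 (-1.01) and Ybx2 (-1.85) were toward frontal cortex, and these genes had at least 10 counts in 3 or more Ctrl libraries of each tissue. Prm1 had a value of 1.07, toward cerebellum (SE 0.24, edgeR adjusted p = 0.000686), and Oaz3 (-1.59), Tssk2 (-2.24), Zpbp2 (-3.46) and Spaca1 (-2.11) had values toward frontal cortex. These 5 had fewer counts than that in Ctrl cerebellum, where Prm1, Oaz3 and Tssk2 were tested through their Upf3b-KO counts and Zpbp2 and Spaca1 were not tested, so they are no support for a direction. Without Upf3b-KO cerebellum replicate 4 the value of Zpbp2 was -4.16. Zpbp and Catsper2 were the members at over 2 CPM in Ctrl cerebellum that also rose in frontal cortex, while Tssk2, Zpbp2 and Spaca1 had 1 to 10 counts in each Ctrl library there. The count was 5 without Ctrl cerebellum replicate 3, where the value of Tssk2 was -1.49 with an adjusted p of 0.0521. The Prm1 value was under the 2-fold limit without Ctrl frontal cortex replicate 3 (0.99), Ctrl cerebellum replicate 1 (0.97) or Upf3b-KO cerebellum replicate 2 (0.99). Catsper2 and Spaca1 lost their calls in several of these fits, with values of -0.998 to -0.922 for Catsper2 and, for Spaca1 without Ctrl cerebellum replicate 2, a value of -1.38 with an adjusted p of 0.142. Both calls were also lost with the replicate number as a block, at -0.975 for Catsper2 and -1.94 (edgeR adjusted p = 0.0255) for Spaca1. For the other 26 genes no difference in fold change was called, which does not show that they responded alike. Of the 16 genes called in frontal cortex and not in cerebellum, 10 had too few counts to be tested in cerebellum.

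**Figure D3:**
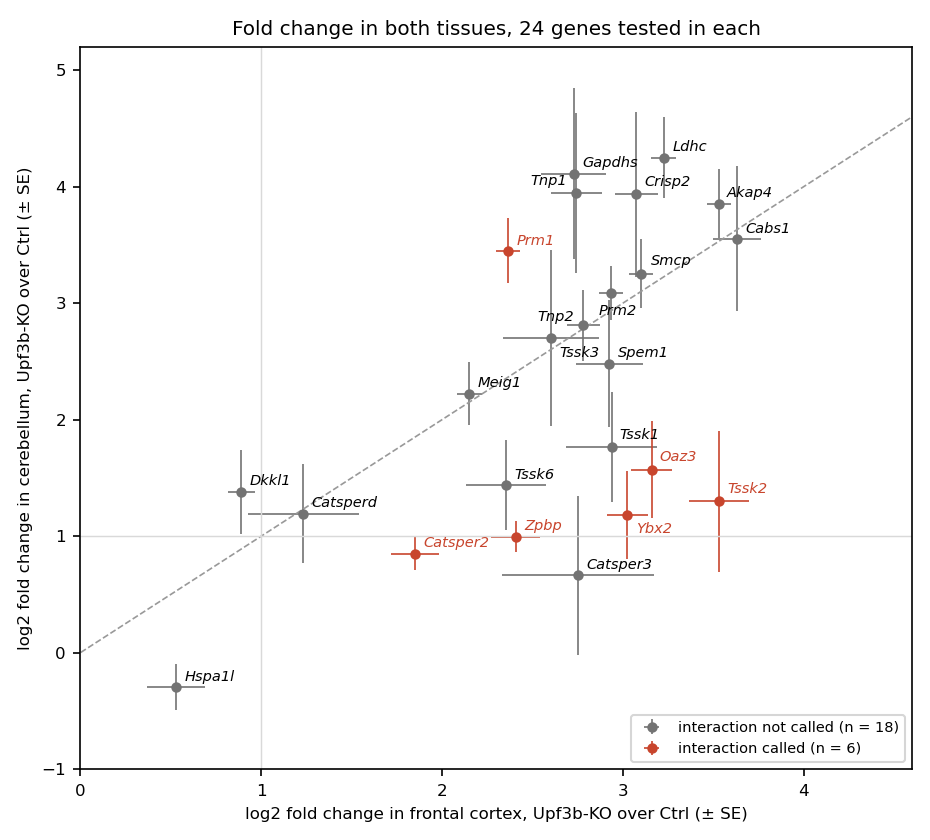
log2 fold change of Upf3b-KO over Ctrl in frontal cortex (horizontal axis) and cerebellum (vertical axis) for the 24 genes tested in both, with SE bars, the dashed line of equal change and thin lines at a 2-fold change. The 6 red genes have a called interaction, the other 18 do not, and Prm1 is the only red gene above the line, at 2.37 in frontal cortex and 3.45 in cerebellum.

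Other genes of the same cells were counted next to the 35. Of 78 further spermatid and sperm genes, 72 were tested in frontal cortex, where 60 were called higher in Upf3b-KO and none lower, against 9.16% and 1.06% of all genes tested. Their median log2 fold change was 2.97 against 0.00 over all genes. In cerebellum 31 were tested and 18 were called higher, against 10.3% of all genes tested, with none lower, or 1 lower without Upf3b-KO cerebellum replicate 4. Of the 78, 53 had at least 3 counts in every Ctrl library of frontal cortex and 75 in every Upf3b-KO library. In cerebellum these were 24 and 53. Genes that entered the tests through their Upf3b-KO counts were not split off, so these counts and the median are no support for a direction. The summed level of the 78 was 245.9 to 252.7 CPM in Ctrl and 609.9 to 621.4 CPM in Upf3b-KO frontal cortex, and 279.7 to 286.9 and 285.7 to 293.8 CPM in cerebellum, where the ranges overlapped. Tcp11, a flagellar signalling protein, rose 8.37-fold in frontal cortex, from 3.55 ± 0.264 to 31.3 ± 1.47 CPM (SD, n = 4 each). Clgn, the testis form of calnexin, rose 3.17-fold in cerebellum, from 12.0 ± 0.805 (n = 4) to 39.4 ± 0.789 CPM (n = 3). The unfiltered fit called 30 of the 78 higher in cerebellum, beside 2283 of 34135 genes of all kinds. The fit of all 15 libraries called 44, beside 2267 of 19831. In that fit, genes with few counts in cerebellum could enter through frontal cortex, so the 44 are no support for a direction.

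Genes of earlier germ cells and of the somatic testis were counted in the same way. Those that entered the tests through their Upf3b-KO counts were not split off here either, so the counts called higher are no support for a direction. Over all genes tested, 9.16% were called higher and 1.06% lower in frontal cortex, and 10.3% and 2.86% in cerebellum. Of 36 genes of meiotic cells and spermatogonia, 14 of the 24 tested were called higher in frontal cortex and none lower, and in cerebellum 7 of 20 were called higher and 2 lower. The number lower ranged from 1 to 3 with each library left out in turn (1 without Ctrl replicate 4 or Upf3b-KO replicate 3, 3 without Upf3b-KO replicate 2), and the number higher from 5 to 7. With the shallow library kept, 4 of these genes were called higher in cerebellum, and with a minimum count of 30 it was 3. Sycp1 and Syce2, components of the synaptonemal complex, were the pair that fell in cerebellum, Sycp1 from 28.4 ± 0.922 (n = 4) to 9.53 ± 0.463 CPM (n = 3). Sycp3, of the synaptonemal complex, was named with Stra8, Fshr, Amh, Insl3, Rhox5 and Foxj1 as a defining marker. It was at 1.77 ± 0.155 and 2.20 ± 0.513 CPM in Ctrl and Upf3b-KO frontal cortex, and Stra8, which starts meiosis, had 0 counts in all 8 frontal cortex libraries. Of 20 genes of Sertoli, Leydig and other somatic cells of the testis, 9 could be tested in frontal cortex and 4 were called higher. This became 7 without Ctrl frontal cortex replicate 4 and 8 with no filter on low counts. In cerebellum 6 were tested and 1 was called higher. Their sum was 58.5 to 64.0 CPM in Ctrl and 80.4 to 84.9 CPM in Upf3b-KO frontal cortex. Fshr had 0 counts in all 8 frontal cortex libraries, and Amh had at most 4 there. Insl3 was at 0.599 ± 0.406 CPM in Ctrl and 1.67 ± 0.234 CPM in Upf3b-KO frontal cortex (n = 4 each). Rhox5 had at most 1 count in a Ctrl and 9 in a Upf3b-KO library there. Cyp11a1 was called higher in both tissues, 2.16-fold in frontal cortex and 2.23-fold in cerebellum. Cyp17a1 was called 5.23-fold higher in frontal cortex, from at most 10 counts in a Ctrl library.

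Genes of other brain cells moved with the genotype as well. The shares over all genes tested were 9.16% higher and 1.06% lower in frontal cortex, and 10.3% higher and 2.86% lower in cerebellum. In these lists too, genes that entered through their Upf3b-KO counts were not split off. Of 25 genes of motile cilia, which ependymal cells share with the sperm tail, 19 of 24 tested were called higher in Upf3b-KO frontal cortex and 15 of 23 in cerebellum, and their sum in frontal cortex was 75.1 to 81.7 CPM in Ctrl and 190.0 to 198.4 CPM in Upf3b-KO libraries. Foxj1, the factor that defines these cells, was at 4.87 ± 0.492 and 11.7 ± 0.486 CPM there. All 12 genes of choroid plexus epithelium were called higher in frontal cortex and 11 in cerebellum. Most of their Upf3b-KO sum was Ttr, the thyroid hormone carrier made by this epithelium, at 1848 ± 26.4 CPM in frontal cortex. All 10 genes of striatal neurons were called higher in frontal cortex (204.7 to 220.5 against 961 to 974.5 CPM) and 3 of 9 in cerebellum, or 1 with the shallow library kept. Their sum in cerebellum was 415.0 to 425.2 CPM in Ctrl and 399.3 to 407.7 CPM in Upf3b-KO libraries. Of 10 genes of cortical neurons, 1 was called lower and none higher in frontal cortex, and 1 of 7 tested went each way in cerebellum. Of 12 genes of cerebellar neurons, 8 were called lower and none higher in cerebellum, and 1 of 8 tested was called lower in frontal cortex. In cerebellum the 12 summed to 10680 to 10850 CPM in Ctrl and 4776 to 4782 CPM in Upf3b-KO libraries. The part of these cell types in the levels of the 35 genes was not tested.

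**Figure D4:**
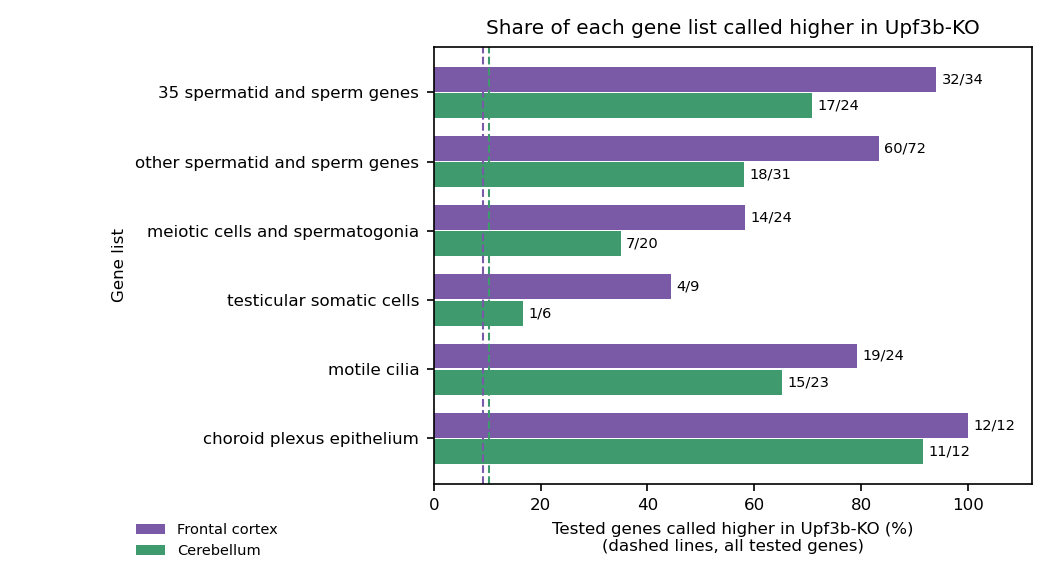
Percent of the tested genes of each list called higher in Upf3b-KO in frontal cortex and cerebellum, with the number called over the number tested at each bar and dashed lines at the share of all genes tested (9.16% and 10.3%). All lists shown lie above the dashed line in frontal cortex, from 4 of 9 somatic testis genes to all 12 choroid plexus genes. The tested genes include some that passed the filter through their Upf3b-KO counts (18 of 24 spermatid and sperm genes in cerebellum), a split not made for the other lists.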

How the data were processed

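Total RNA from frontal cortex and cerebellum was depleted of ribosomal RNA, made into SMART-Seq v4 PLUS libraries and sequenced as read pairs on a NovaSeq instrument. Expected counts per Ensembl transcript were made by the authors with STAR (version 2.5.2b in the submitters' processing notes) against GRCm39 and RSEM, and were deposited unscaled. Whether strand was used, and the RSEM version, are not given in the sources used here. The deposited values were summed per gene for the 141102 of 142435 transcripts found in the annotation (55266 genes), rounded, and divided by the deposited library total for CPM. RPKM used the count-weighted annotated transcript length. Groups followed the labels, with 4 libraries each, and the p-values cover only the spread between these samples.

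Genes passing filterByExpr (minimum count 10, minimum total 15) were fitted in edgeR 4.0.16 (R 4.3.3) with TMM scaling, separately for each tissue, and over all 15 deep libraries for the interaction and the Ctrl region difference. Quasi-likelihood p-values were adjusted by Benjamini-Hochberg over all genes tested, and a call needed an adjusted p under 0.01 and a change over 2-fold. The SE is the log2 fold change divided by the square root of F. Each fit was first tested on simulated counts. DESeq2 1.42.0, other scalings, filters, limits and each library left out were tried as alternatives. Intervals and floors of 3 counts cover counting error only, since the reads carry no molecular identifiers.

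The members and lists were chosen with earlier results of these data known. All 35 genes are named, and those called in either tissue are given with every library for at most 4 per role, by mean CPM over the 15 deep libraries. From each other list, at most 2 called genes per tissue and direction, by smallest adjusted p, could be named, and defining markers were added.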

Additional observations from a re-analysis of the deposited data

Results flagged for a closer look

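Of the 103 sets of 4 libraries examined for a library far from the others, 10 were flagged by Dixon's criterion. Its limit flags about 1 in 20, or 5.2, for continuous normal values. That rate does not hold for small counts, where a set with a single library above 0 is always flagged. All 10 were at 0 to 10 counts. In Ctrl cerebellum replicate 3, Tnp2 was at 0.1651 CPM (others 0.2531 to 0.2646), Akap4 at 0.1651 CPM (others 0.1446 to 0.147), Crisp2 at 0.1981 CPM (others 0 to 0.0294) and Acrv1 at 0.09906 CPM (others 0). Elsewhere in Ctrl cerebellum, Izumo1 was at 0.1447 CPM in replicate 1, H1f6 at 0.0294 CPM in replicate 2 and Catsper1 at 0.03615 CPM in replicate 4, with the others at 0. In frontal cortex, Acrv1 was at 0.2898 CPM in Ctrl replicate 3 (others 0.09006 to 0.0931), and H1f6 was at 0.0931 CPM in Ctrl replicate 4 and 0.02977 CPM in Upf3b-KO replicate 1, with the others at 0.

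The fold change differed between the tissues for 8 genes by the test of the interaction. The log2 difference, cerebellum minus frontal cortex, was 1.07 for Prm1, -1.59 for Oaz3, -2.24 for Tssk2, -1.42 for Zpbp, -3.46 for Zpbp2, -2.11 for Spaca1, -1.01 for Catsper2 and -1.85 for Ybx2. Zpbp2 and Spaca1 had too few counts to be tested in cerebellum by itself, and Prm1, Oaz3 and Tssk2 were tested there through their Upf3b-KO counts.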

How the results depend on the processing

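The 32 genes called higher in frontal cortex ranged from 26 (transcripts in place of genes) to 34 over the alternatives, and none was called lower in either tissue under any of them. The 17 called higher in cerebellum became 10 with a minimum count of 30, 10 with the shallow library kept and 4 with transcripts in place of genes, and lay between 13 and 23 in the others. Genes above a few reads in Ctrl cerebellum went from 14 to 5 when 10 counts were asked for. With each library left out in turn, the counts ranged from 31 to 32 in frontal cortex, 14 to 18 in cerebellum, 5 to 8 for the interaction (5 without Ctrl cerebellum replicate 3) and 25 to 28 for the Ctrl tissues, with 0 lower in both tissues. Same-numbered Ctrl and Upf3b-KO libraries had correlations of deviations between -0.037 and 0.126 for frontal cortex (-0.089 to 0.103 for different numbers). For cerebellum they lay between 0.055 and 0.232 (-0.142 to 0.096). The study names 4 mice of each genotype for both tissues, but the sources do not say which libraries share a mouse. Not every pair was over 0.1, and no source links a Ctrl to a Upf3b-KO library by number, so the number was kept out of the fit. With that number as a replicate block, 32 were called higher in frontal cortex, 13 in cerebellum, 6 in the interaction and 26 between Ctrl tissues. Of the log2 values of single genes, no called value changed sign, 1792 kept their side of the limits, 51 lost a call and 20 gained one. Genes with a library under 3 counts were most frequent in Ctrl cerebellum, at 21 of the 35.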
